A study of Danio rerio with 12 samples.

Results

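The genes cdkn1a, gadd45aa, gadd45ab and ccng1 encode zebrafish counterparts of p21, Gadd45a and cyclin G1. These are proteins that p53 induces in vertebrate cells, and the genes are grouped here as growth arrest genes. The genes were taken by name as 4 of the 15265 rows of a gene count table, with earlier results of these data known. All 4 passed the filter on low counts with which 11866 genes were tested. The table comes from poly-A RNA of whole zebrafish embryos at 28 hours post fertilisation (hpf), with each RNA sample made from 30 to 50 pooled embryos. Wild-type embryos and miR-34a-/- embryos, which lack the p53-induced microRNA miR-34a, were each given DMSO or 1 µM camptothecin (CPT) in the water for 4 hours from 24 hpf, with 3 libraries in each of the 4 groups. Camptothecin traps topoisomerase I on DNA and so causes DNA breaks. The controls are labelled 0.005% DMSO, whereas the CPT stock was 2 mM in DMSO, a 2000-fold dilution that carries 0.05% DMSO into the water if the stock was pure DMSO. The drug and the amount of vehicle therefore cannot be told apart from these labels. The labels give no line, allele or clutch for the mutants, and the count columns call them a deletion of mir34a.

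After DNA damage p53 is stabilised and switches on genes that stop the cell cycle while the DNA is repaired. The best known of them is cdkn1a (p21), which binds and inhibits cyclin-dependent kinases and the replication clamp PCNA and so holds cells in G1. Gadd45 proteins are small acidic stress proteins that bind PCNA and p21, activate the MAP kinase kinase kinase MTK1 (MAP3K4) and are linked in mammals to arrest at G2/M. Cyclin G1, the product of ccng1, is an unusual cyclin that recruits the phosphatase PP2A to Mdm2 and so takes part in the feedback on p53. Teleost fish carry duplicates of many such genes, and gadd45aa and gadd45ab are the duplicates of the single mammalian Gadd45a.

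Library totals ran from 13455710 to 27949054 counts, and wild-type CPT libraries had TMM scaling factors of 0.835 to 0.962, against 1.01 to 1.09 in the other 9 libraries. The mutated gene was read out at the row mir34, with 0, 1 and 0 counts in wild-type embryos without CPT, 9, 9 and 32 with CPT and 0 in all 6 mutant libraries. Of 30 marker genes of 10 embryonic tissues, 29 had counts, and the erythroid factor gata1a had 0 counts in all 12 libraries. CPM values are read counts scaled to library depth with TMM factors. The summed CPM of the 3 markers of a tissue was lower in every CPT library than in every DMSO library of both genotypes for 4 tissues (endothelium, erythroid cells, lens and retina, skeletal muscle) and higher for 2 (hatching gland, germ cells). The sums of the other 4 (neurons, epidermis, notochord, heart) did not do the same in both genotypes. Among all tested genes, taken singly, 64.3% had no overlap of CPT and DMSO libraries in wild-type embryos and 66.1% in mutants. The tissue sums were not tested against such shares, so their number does not set these tissues apart. Mean CPM of the neuronal marker elavl4 fell from 75.4 to 13.3 in wild-type and from 78.7 to 11.8 in mutant embryos. The neuronal sum was mostly tubb5 (710 to 907 and 817 to 807), and elavl3 went from 114 to 140 and from 112.5 to 97.4. The epidermal marker tp63 fell from 9.05 to 1.72 and from 9.60 to 1.80. The epidermal sum was almost all krt4 (2726 to 4830 and 2969 to 2464). Endothelial sums of wild-type embryos ran from 83.8 to 85.3 without and from 14.2 to 21.8 with CPT, and from 87.3 to 98.4 against 21.7 to 26.8 in mutants. Hatching gland sums ran from 2409 to 2917 against 3239 to 3970 in wild-type and from 2101 to 2553 against 2867 to 4003 in mutant embryos. The skeletal muscle sum was almost all the actin gene acta1b, and the muscle factor myod1 was at -0.18 in wild-type embryos on the log2 scale (edgeR quasi-likelihood test, adjusted p = 0.42) and rose by 0.77 in mutants (adjusted p = 0.00222). The erythroid sum was almost all cahz, as alas2 had at most 2 counts in any library. In lens and retina, cryba1a was at 0.635 and 0.615 CPM without and with CPT in wild-type embryos and at 0.494 and 0.444 in mutants. The germ cell gene dnd1 went from 0.684 to 1.30 in wild-type embryos and was at 0.590 and 0.606 in mutants. The hatching gland gene ctslb overlapped in mutants (479 to 653 against 446 to 743). The part of these tissues in the results below was not tested, and in whole-embryo RNA fewer cells of a type and less RNA per cell cannot be told apart.

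CPT raised 3 of the 4 genes in both genotypes. In wild-type embryos and mutants respectively, cdkn1a rose 85.1-fold and 78.4-fold, gadd45aa 38.1-fold and 52.7-fold and ccng1 4.42-fold and 4.22-fold, while gadd45ab did not pass the test in either genotype. Under the same rule (edgeR quasi-likelihood test, Benjamini-Hochberg adjusted p under 0.05 over all tested genes), 29.1% of all tested genes were called higher in wild-type embryos and 28.5% in mutants (60.8% and 60.2% in either direction). The separation by library was not particular to these genes, since CPT and DMSO libraries did not overlap for 64.3% of all tested genes in wild-type embryos and for 66.1% in mutants. The sizes of the rises placed 2 of the 4 genes at the far end of the distribution: among 11866 genes, cdkn1a had the 4th and gadd45aa the 8th highest log2 fold change in wild-type embryos, and the 5th and 8th in mutants. The genes were chosen with earlier results of these data known. These ranks therefore describe the genes and do not test whether they stand out.

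**Figure D1:**
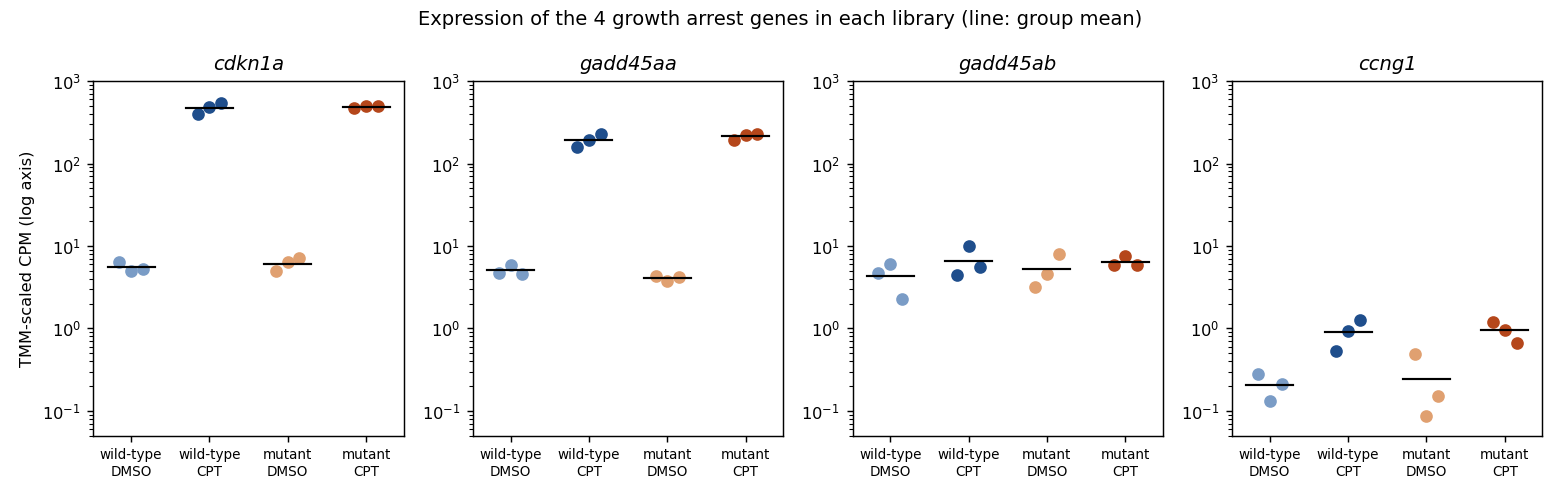
TMM-scaled CPM on a log axis for each of the 12 libraries, by gene and group, with a line at each group mean. The CPT libraries of cdkn1a and gadd45aa lie far above the DMSO libraries, those of ccng1 lie above them at a level near 1 CPM, and those of gadd45ab overlap with them.

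The cell-cycle inhibitor cdkn1a was read 138, 113 and 124 times in the wild-type embryos kept in DMSO, which is 6.47, 4.99 and 5.27 CPM. In the wild-type CPT libraries it had 6675, 10834 and 14569 counts, or 394, 487 and 542 CPM. Every CPT library was thus far above every DMSO library. Wild-type CPT library 1, the lowest for cdkn1a, also had the lowest TMM factor (0.835) of all libraries, and the highest, library 3, had 0.962. In mutants cdkn1a went from 5.03, 6.31 and 7.05 CPM in DMSO to 465, 494 and 492 CPM in CPT. The log2 fold change was 6.41 ± 0.16 (SE) in wild-type embryos (adjusted p = 2.58e-17) and 6.29 ± 0.16 in mutants (adjusted p = 3.59e-17), by the edgeR quasi-likelihood test. From highest to lowest, the group means were 484 ± 16 CPM in mutant CPT, 474 ± 75 in wild-type CPT, 6.13 ± 1.0 in mutant DMSO and 5.58 ± 0.79 in wild-type DMSO (SD, n = 3). Within each treatment the genotypes overlapped, so the step between the DMSO groups and the CPT groups is the one step in that order that exceeds the spread.

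The damage-inducible gene gadd45aa had 4.74, 5.87 and 4.59 CPM in wild-type DMSO libraries and 160, 194 and 225 CPM in wild-type CPT libraries. In mutants the DMSO libraries had 4.29, 3.72 and 4.26 CPM and the CPT libraries 194, 223 and 229 CPM. As for cdkn1a, wild-type CPT library 1 was the lowest and library 3 the highest of its group. The log2 fold change was 5.25 ± 0.15 in wild-type embryos (adjusted p = 2.56e-16) and 5.72 ± 0.15 in mutants (adjusted p = 9.95e-17). From highest to lowest, the groups were mutant CPT at 215 ± 19 CPM, wild-type CPT at 193 ± 33, wild-type DMSO at 5.07 ± 0.70 and mutant DMSO at 4.09 ± 0.32 (SD, n = 3). All 3 mutant DMSO libraries lay below all 3 wild-type DMSO libraries, as 17.1% of all tested genes did not overlap in that comparison, and the difference did not pass the test (log2 difference -0.31 ± 0.16, adjusted p = 0.475). The CPT groups overlapped.

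Its duplicate gadd45ab started from similar counts and did not follow in the reads assigned to its row. It had 101, 137 and 54 counts in wild-type DMSO libraries (4.74, 6.05 and 2.29 CPM) and 76, 220 and 150 counts in wild-type CPT libraries (4.49, 9.89 and 5.58 CPM). Mutant DMSO libraries had 3.19, 4.60 and 7.96 CPM and mutant CPT libraries 5.88, 7.47 and 5.87 CPM. The CPT and DMSO libraries overlapped in both genotypes. The log2 fold change was 0.62 ± 0.38 in wild-type embryos, with a 95% interval of -0.20 to 1.43 (adjusted p = 0.174), and 0.28 ± 0.38 in mutants, with an interval of -0.55 to 1.1035 (adjusted p = 0.556). As folds these intervals run from 0.873 to 2.702 and from 0.683 to 2.15, well short of the rise of gadd45aa. Reads lost or misassigned at the row of gadd45ab cannot be told apart here from a lack of response. In order, the group means were 6.65 ± 2.9 CPM in wild-type CPT, 6.41 ± 0.92 in mutant CPT, 5.25 ± 2.5 in mutant DMSO and 4.36 ± 1.9 in wild-type DMSO (SD, n = 3), with no neighbouring step beyond the spread. The libraries of one group scattered widely for this gene: the coefficient of variation was 43.7%, 42.9% and 46.7% in wild-type DMSO, wild-type CPT and mutant DMSO, where counting error alone gives 10.1%, 8.31% and 9.84%, and 14.3% in mutant CPT. For cdkn1a it was 3.32% to 16.7%, and for gadd45aa 7.83% to 16.9%.

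The cyclin G1 gene ccng1 rose in both genotypes from very few reads. It had 6, 3 and 5 counts in wild-type DMSO libraries and 9, 21 and 34 in wild-type CPT libraries, or 0.281, 0.132 and 0.212 CPM against 0.531, 0.944 and 1.27 CPM. In mutants the DMSO libraries had 8, 2 and 3 counts (0.490, 0.0876 and 0.152 CPM) and the CPT libraries 27, 15 and 9 counts (1.21, 0.965 and 0.661 CPM). Every CPT library was above every DMSO library of its genotype, the closest pair being mutant DMSO library 1 and mutant CPT library 3. The log2 fold change was 2.15 ± 0.53 in wild-type embryos (95% interval 1.03 to 3.26, adjusted p = 0.001665) and 2.08 ± 0.56 in mutants (0.92 to 3.23, adjusted p = 0.00308). The group means were 0.946 ± 0.28 CPM in mutant CPT, 0.913 ± 0.37 in wild-type CPT, 0.243 ± 0.22 in mutant DMSO and 0.209 ± 0.075 in wild-type DMSO (SD, n = 3), and the genotypes overlapped within each treatment. As folds these intervals run from 2.05 to 9.55 and from 1.89 to 9.41. Without mutant DMSO library 1, which holds 8 of the 13 counts of its group, the log2 fold change in mutants was 2.97.

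**Figure D2:**
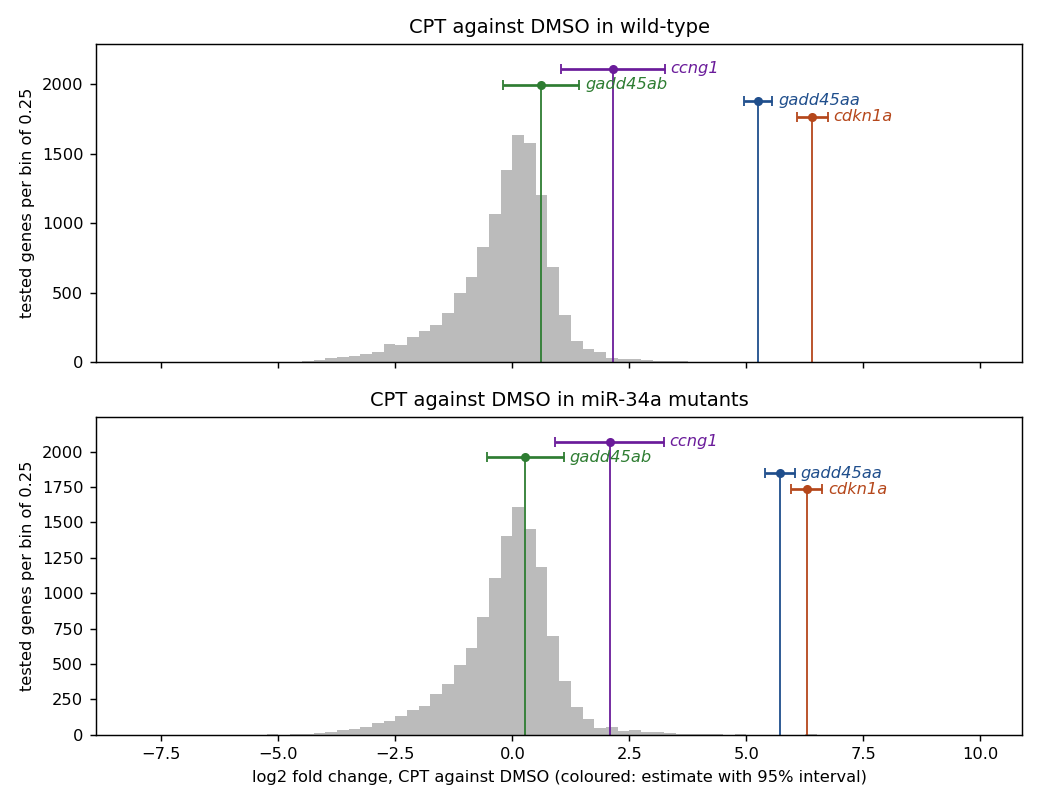
Histogram of log2 fold changes, CPT against DMSO, of all 11866 tested genes in bins of 0.25, in wild-type (top) and mutant embryos (bottom), with the 4 genes as coloured lines and their 95% intervals. The lines of cdkn1a and gadd45aa stand beyond nearly all genes, ccng1 lies in the upper tail with a wide interval, and gadd45ab lies inside the bulk.

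The count rows around these genes differed. Of the 5 protein-coding genes on each side in the gene order of the RefSeq annotation (assembly GRCz12tu, another build than the files', used for order only), 7 had a row beside cdkn1a and none of these was at or under 10 counts in every library. Beside gadd45aa it was 2 of 8, beside gadd45ab 4 of 4 and beside ccng1 5 of 5, against 20.1% of all rows in the table. With 20 genes on each side the shares were 0 of 25, 3 of 31, 10 of 19 and 13 of 23. The adjacent genes of ccng1, tmx2a and nudcd2, reached at most 2 counts in any library. The rows of dr1, which encodes a general repressor of transcription, and of glulb, a glutamine synthetase, near gadd45ab reached 1 and 7 counts. Rows near 0 elsewhere in the table include the mitotic kinase cdk1, with at most 3 counts, and the purine salvage enzyme hprt1, with at most 1. Counts near 0 are therefore given here as reads assigned to a row and not as transcript levels, and what part the surroundings have in the values of gadd45ab and ccng1 was not tested. The adjacent genes of cdkn1a and gadd45aa with tested rows went both ways. Beside cdkn1a, srsf3b, which encodes a splicing factor, fell by 0.88 in wild-type and 1.03 in mutant embryos on the log2 scale (adjusted p = 2.6e-06 and 3.59e-07), while tmcc2 rose by 0.72 in wild-type embryos (adjusted p = 0.00149) and was at 0.00 in mutants (adjusted p = 0.988). Beside gadd45aa, gng12a, a G protein subunit gene, fell by 1.07 and 0.55 (adjusted p = 1.22e-06 and 0.00199). The homeobox gene dmbx1a on its other side fell by 0.60 and 0.95 (adjusted p = 0.00933 and 0.000275).

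**Figure D3:**
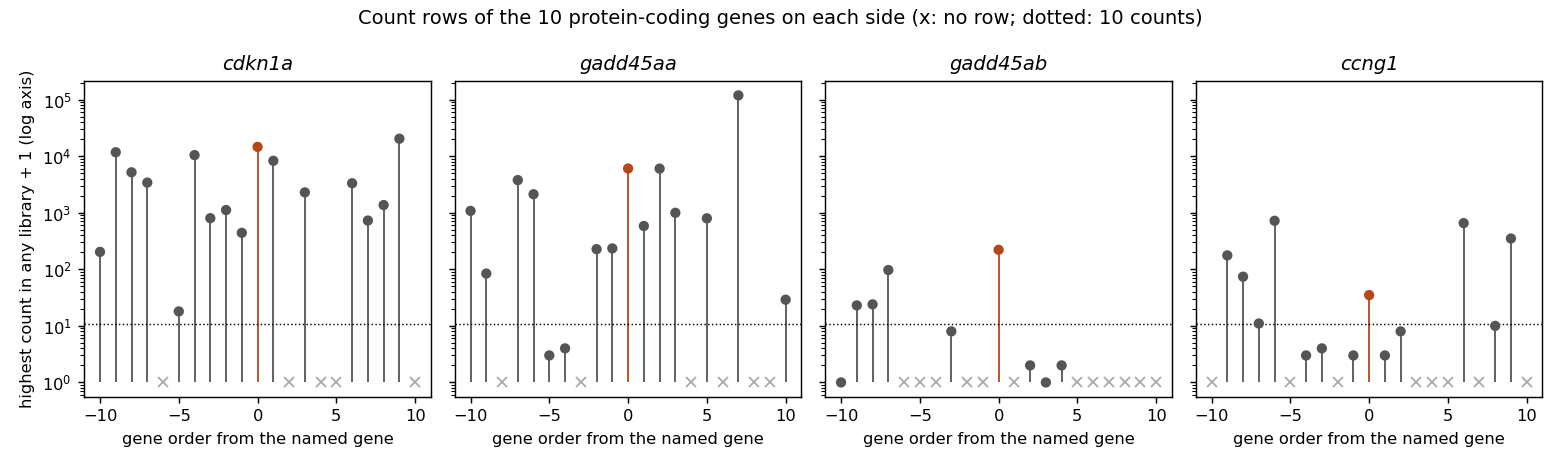
Highest count in any library plus 1, on a log axis, of each of the 4 genes (orange, at 0) and of the 10 protein-coding genes on each side of it by gene order, with a cross for a gene without a row and a dotted line at 10 counts. Rows beside cdkn1a lie above the line, and those nearest to gadd45ab and ccng1 lie below it.

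The ratio of a pair of genes within one library needs no scaling, so it compares their changes in assigned reads without TMM factors. It does not correct for reads lost or misassigned at a row. The counts of gadd45aa and gadd45ab were 101 and 101 in wild-type DMSO library 1 and 2703 and 76 in wild-type CPT library 1. The log2 ratio of gadd45aa to gadd45ab was 0.32 ± 0.59 without and 4.92 ± 0.55 with CPT in wild-type embryos (SD, n = 3), and -0.26 ± 0.66 against 5.07 ± 0.19 in mutants. It was higher in every CPT library than in every DMSO library of its genotype. Averaged over the genotypes it rose by 4.97 (2-sided exact permutation of treatment within genotype, p = 0.005, the smallest that 400 relabelings allow). The same smallest p of 0.005 was reached for cdkn1a against gadd45ab (5.85), ccng1 (4.29) and gadd45aa (0.88), and for gadd45aa against ccng1 (3.41). Each of these ratios was higher in 6 of 6 CPT libraries. The permutation p was 0.006 for these 5 pairs after adjustment over the 6 pairs. The 6 ratios share the same 4 rows, so they are not separate results. They also come from the same counts as the fold changes above and restate them without scaling. Given those fold changes, the smallest p was foreseeable for cdkn1a or gadd45aa against gadd45ab or ccng1. For single genes, CPT and DMSO libraries did not overlap for 64.3% of all tested genes in wild-type embryos and 66.1% in mutants. The share over other pairs of genes was not tested.

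The pair of strong responders changed by unequal amounts. The log2 ratio of cdkn1a to gadd45aa was 0.45, -0.23 and 0.20 in wild-type DMSO libraries and 1.30, 1.33 and 1.27 in wild-type CPT libraries. In mutants it was 0.23, 0.76 and 0.72 in DMSO and 1.26, 1.15 and 1.1049 in CPT libraries. The highest of the 3 wild-type CPT libraries was 1.38 times the lowest in CPM for cdkn1a and 1.41 times for gadd45aa, and their log2 ratio varied by 0.057 over the same libraries. The change in the ratio was 1.16 in wild-type embryos and 0.60 in mutants, and the difference between these values was not tested. The remaining pair, gadd45ab against ccng1, fell by 1.56 (exact permutation p = 0.035, also after adjustment), the libraries overlapped in both genotypes, and leaving out any of 9 of the 12 libraries gave p of 0.05 to 0.075.

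**Figure D4:**
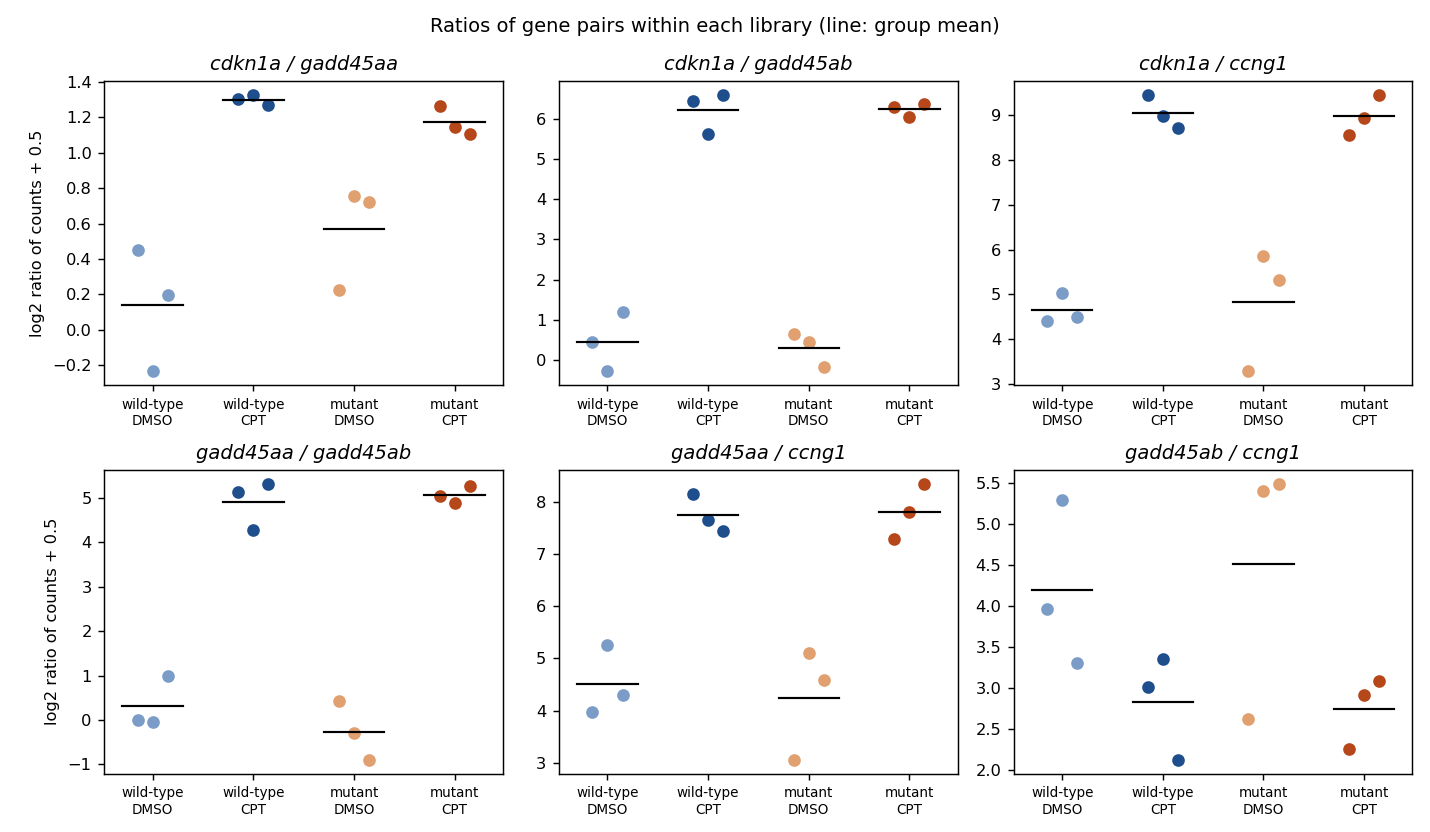
Log2 ratio of counts plus 0.5 for the 6 pairs of genes in each library, by group, with a line at each group mean and an axis of its own for each pair. In 5 pairs the CPT libraries of a genotype lie apart from its DMSO libraries, and in gadd45ab over ccng1 they overlap.

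No difference between the genotypes passed the test for any of the 4 genes, in DMSO, in CPT or in the response to CPT. In the same comparisons 0.598%, 3.29% and 0.16% of all tested genes were called in either direction (0.0253% with a more positive log2 change with CPT in mutants). For cdkn1a the mutant against wild-type log2 difference was 0.15 (95% interval -0.18 to 0.47, adjusted p = 0.791) in DMSO and 0.03 (-0.22 to 0.28, adjusted p = 0.932) in CPT. As a fold, the interval in CPT runs from 0.857 to 1.21. For gadd45aa it was 0.16 (-0.09 to 0.40, adjusted p = 0.498) in CPT, for gadd45ab -0.06 (-0.87 to 0.75, adjusted p = 0.952) and for ccng1 0.04 (-0.87 to 0.96, adjusted p = 0.973). As folds, the intervals of gadd45ab and ccng1 run from 0.546 to 1.68 and from 0.547 to 1.94. In DMSO the difference was 0.28 (-0.55 to 1.11, adjusted p = 0.855) for gadd45ab and 0.11 (-1.32 to 1.54, adjusted p = 0.971) for ccng1.

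The CPT response itself differed most between genotypes for gadd45aa, where it was larger in mutants by 0.47 ± 0.20 on the log2 scale (95% interval 0.05 to 0.89, unadjusted p = 0.0292, adjusted p = 0.271). This did not pass the threshold, and over the alternatives the adjusted p ran from 0.0748, without wild-type CPT library 3, to 0.528. The mutant against wild-type log2 difference of gadd45aa was -0.31 in DMSO and 0.16 in CPT. The larger part of the 0.47 thus lay in the DMSO libraries, with 70 to 85 counts in mutants and 101 to 133 in wild-type embryos. The interaction was -0.12 ± 0.20 for cdkn1a (adjusted p = 0.822), -0.34 ± 0.54 for gadd45ab (adjusted p = 0.812) and -0.07 ± 0.80 for ccng1 (adjusted p = 0.98). Averaged over both treatments, log2 CPM (with 0.1 CPM added) in mutants differed from wild-type by 0.08 for cdkn1a, -0.06 for gadd45aa, 0.14 for gadd45ab and 0.04 for ccng1. The exact permutation p for these 4 values was 0.465, 0.62, 0.645 and 0.9, with genotype permuted within treatment.

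Among the paralogues of these genes, 3 of the 4 tested rose and 1 fell in both genotypes. The shares over all tested genes were 29.1% higher and 31.8% lower in wild-type embryos, and 28.5% and 31.7% in mutants. The duplicate gadd45bb, of the stress- and cytokine-induced Gadd45b type, rose from 5.93 ± 0.50 to 71.3 ± 20.4 CPM in wild-type embryos (SD, n = 3), a log2 fold change of 3.59 (adjusted p = 1.5e-10), and by 3.96 in mutants. Its duplicate gadd45ba rose by 1.24 (adjusted p = 3.93e-05) and 1.06. The gene gadd45gb.1, of the Gadd45g type known from neural and somite development, rose by 0.48 (adjusted p = 0.0071) and 0.73, and with library totals as scaling the wild-type count of rising paralogues was 2 and not 3. The cyclin G2 gene ccng2 fell by 0.75 (adjusted p = 0.0015) and 0.90. It was the one gene among the 4 genes and their 4 tested paralogues that was called between genotypes, at 20.1 ± 2.5 CPM in mutant CPT against 34.5 ± 2.8 in wild-type CPT (log2 difference -0.78, adjusted p = 0.0305). In that comparison 2.16% of all tested genes were called lower. In DMSO it was at 37.5 ± 4.5 against 57.8 ± 18 CPM (-0.63, adjusted p = 0.1405). The alternatives followed only the 4 genes by name, so whether the ccng2 call is kept under them was not tested. Leaving out 1 library at a time gave 46 to 626 lower calls between genotypes in CPT over all tested genes. The row gadd45ga had at most 1 count in any library and was not tested. The median log2 fold change of the 4 tested paralogues was 0.86 in wild-type embryos and 0.89 in mutants, against 0.00 and -0.01 over all tested genes.

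Other inhibitors of cyclin-dependent kinases moved less than cdkn1a. Of 6 tested, 3 rose and 1 fell in each genotype, with a median of 0.29 in wild-type and 0.34 in mutant embryos. Among all tested genes 29.1% were called higher and 31.8% lower in wild-type embryos, and 28.5% and 31.7% in mutants. The p27 gene cdkn1ba went from 31.0 ± 0.58 to 143 ± 19 CPM in wild-type embryos (2.21, adjusted p = 1.485e-12) and rose by 2.11 in mutants. The p57 gene cdkn1ca rose by 0.66 (adjusted p = 0.000152) and 1.02, and the INK4-type inhibitor cdkn2c rose by 0.51 in wild-type embryos (adjusted p = 0.0169) and was at 0.38 in mutants (adjusted p = 0.0733). In mutants the remaining higher call was cdkn1bb, which went from 35.6 ± 2.6 to 44.0 ± 1.4 CPM (SD, n = 3). In wild-type embryos it was at 37.0 ± 2.1 and 38.6 ± 6.6 CPM and was not called. The phosphatase gene cdkn3, which is expressed in dividing cells, fell by 0.71 (adjusted p = 4.45e-05) and 0.59.

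**Figure D5:**
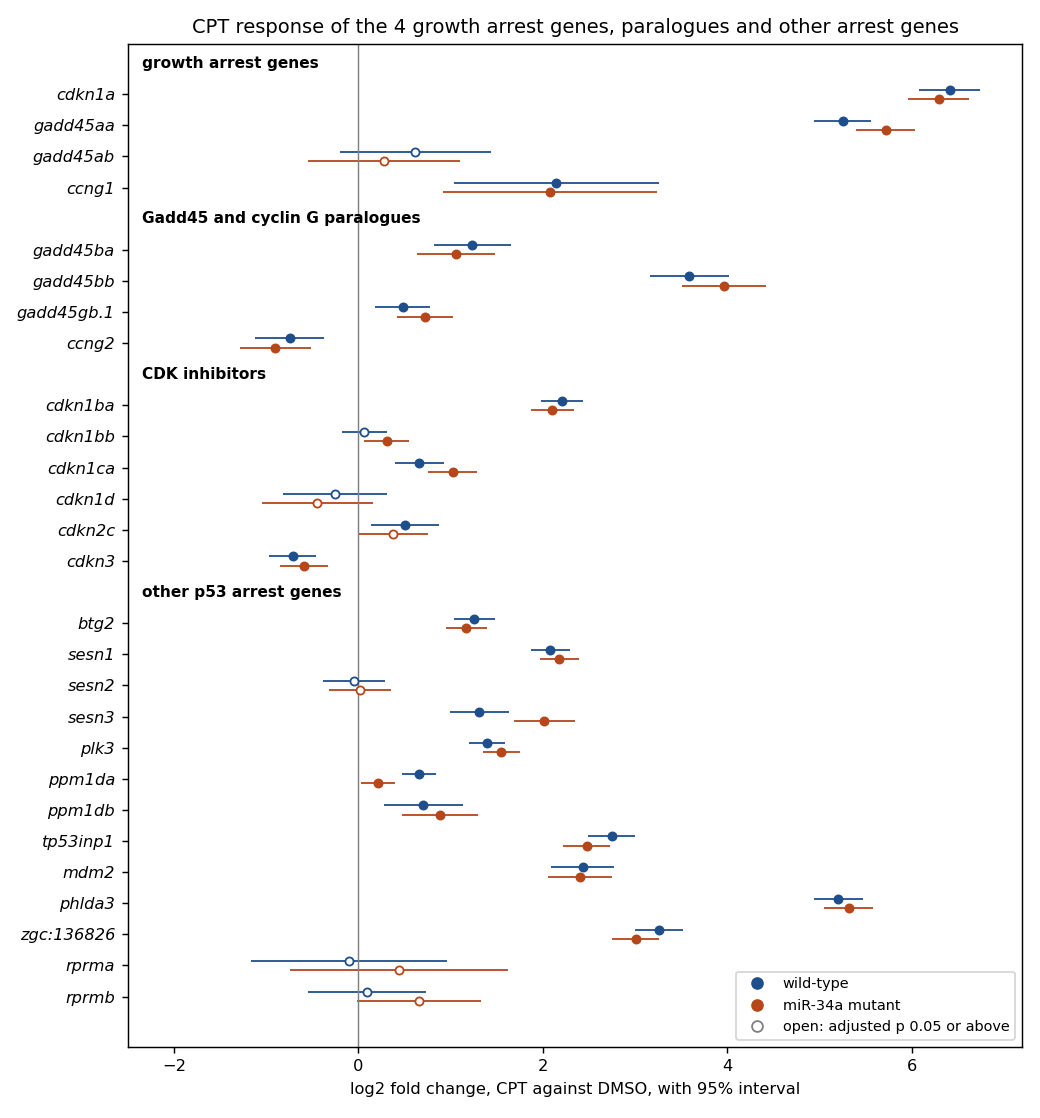
Log2 fold changes, CPT against DMSO, with 95% intervals for the 4 genes, their tested paralogues, other CDK inhibitors and 13 of the 14 tested other p53-induced arrest genes, in wild-type (blue) and mutant embryos (orange), with open symbols where the adjusted p was 0.05 or above. The closest in size to cdkn1a and gadd45aa is phlda3, and ccng2 and cdkn3 lie below 0 in both genotypes.

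The targets of these inhibitors did not move as one group. Of 19 tested cyclins, CDKs and their partners, 3 rose and 6 fell in wild-type embryos and 4 rose and 4 fell in mutants, with medians of -0.07 and -0.09. Over all tested genes 29.1% were called higher and 31.8% lower in wild-type embryos, and 28.5% and 31.7% in mutants, so these counts do not set the list apart. The G1 kinase cdk4 rose by 1.07 (adjusted p = 7.56e-09) and 0.52, while ccnb3, a B-type cyclin, fell by 1.96 (adjusted p = 1.27e-06) and 2.15. The retinoblastoma gene rb1 fell by 0.60 (adjusted p = 2.02e-05) and 0.59, and the S-phase cyclin gene ccna2 fell by 0.39 (adjusted p = 0.000889) and 0.52. With library totals as scaling 1 gene of this list and not 3 rose in wild-type embryos, and without wild-type CPT library 1 it was 5.

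Kinases of the pathways that Gadd45 proteins feed into in mammals were called in both directions. Of 9 tested p38 and JNK pathway kinases, 3 rose and 4 fell in wild-type embryos, and 2 rose and 3 fell in mutants (medians -0.13 and -0.35), counts near the shares of 29.1% higher and 31.8% lower in wild-type embryos and of 28.5% and 31.7% in mutants over all tested genes. The neuronal JNK gene mapk10 fell by 3.34 (adjusted p = 9.69e-09) and 2.77, the p38 activator map2k6 by 1.13 (adjusted p = 5.14e-08) and 1.34 and the p38 gene mapk14b by 0.78 (adjusted p = 3.33e-05) and 0.45. The JNK activator map2k4b rose by 0.63 in wild-type embryos (adjusted p = 8.47e-06) and was at 0.16 in mutants (adjusted p = 0.161). It was also lower in mutant than in wild-type CPT libraries (log2 difference -0.37, adjusted p = 0.03315), the one such call in this list. In that comparison 2.16% of all tested genes were called lower. As for ccng2, whether this call is kept under the alternatives was not tested. No gene of this list was called for a difference between genotypes in the CPT response. The number of rising genes of this list in wild-type embryos was 1 with library totals and 1 without wild-type DMSO library 1, and in mutants it was 4 with upper-quartile factors.

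Of 7 tested PP2A genes, 4 fell in both genotypes, and these were the 4 tested genes of the B56 regulatory subunits. Mammalian cyclin G1 recruits the phosphatase through subunits of this kind. The B56 genes were not planned as a list of their own, and the listed B56 genes ppp2r5a, ppp2r5b and ppp2r5ca had no row. In wild-type embryos ppp2r5eb fell by 0.98 (adjusted p = 1.585e-07), ppp2r5d by 0.87 (3.15e-07), ppp2r5cb by 0.77 (3.15e-05) and ppp2r5ea by 0.48 (0.000955). In mutants the falls were 0.70, 0.93, 0.59 and 0.37. The list's median was -0.48 and -0.37. Over all tested genes 31.8% were called lower in wild-type embryos and 31.7% in mutants, with medians of 0.00 and -0.01, and a list of this size was not tested against them. Of the remaining 3 genes of the list, 2 were called higher in wild-type embryos and 1 in mutants, and none with library totals. The wild-type count was also 0 without wild-type CPT library 1 or wild-type DMSO library 2 and 1 without wild-type DMSO library 3, and the mutant count was 0 without mutant DMSO library 2 or 3 and with libraries thinned to the smallest total.

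Other p53-induced genes of growth arrest and stress rose with them: 11 of 14 tested genes rose and 0 fell in each genotype. The medians of the 14 were 1.35 in wild-type embryos and 1.78 in mutants. The list held 20 genes, of which 16 had a row. No row was found for plk2a, zmat3, sfn and fbxw7, and plk2b and rrm2b had at most 1 count in any library and were not tested. Under the same test 29.1% of all tested genes were called higher and 31.8% lower in wild-type embryos, and 28.5% and 31.7% in mutants. The list was not tested against these shares. It was chosen with earlier results of these data known, so its count is a description. At an unadjusted p under 0.05, and with DESeq2 or limma-voom, the number of the 14 that fell was also 0 in both genotypes. The PH-domain gene phlda3, an inhibitor of Akt, rose by 5.20 (adjusted p = 2.58e-17) and 5.31, and zgc:136826, listed as rps27l in the reference, by 3.26 (adjusted p = 5.21e-14) and 3.01. The p53-binding stress gene tp53inp1 rose by 2.75 (adjusted p = 4.27e-13) and 2.48. The amino acid sensor gene sesn2 was at -0.05 and 0.02 and the reprimo genes rprma and rprmb between -0.10 and 0.66, and none of these 3 passed the test in either genotype.

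The genes whose log2 CPM ran most like each of the 4 over the 12 libraries were found by Pearson correlation, given as a description. For cdkn1a, gadd45aa and ccng1 it mostly reflects the shared step between DMSO and CPT libraries. For cdkn1a they were phlda3 (r = 0.999), the cyclin T gene ccnt2b (0.998) and the PI3-kinase regulatory gene pik3r3a (0.997). For gadd45aa they were the death gene bbc3 (0.999), the small GTPase gene rasl11b (0.998) and the initiator caspase gene casp8 (0.997). For ccng1 the nearest were lgi1a, amer2 and zfyve28 (0.966 to 0.967), which rose by 0.48 to 0.71 in wild-type embryos. For gadd45ab the nearest, zgc:113372, rhoaa and zgc:65895, reached only 0.873 to 0.884. Of these, rhoaa had mean CPM of 295 and 301 without and with CPT in wild-type embryos, and 289 and 310 in mutants. Its DMSO libraries had 310, 320 and 255 CPM in wild-type embryos and 265, 278 and 325 in mutants. Within each of these DMSO groups gadd45ab had the same order of libraries. In mutant CPT libraries the order differed, with 313, 312 and 306 CPM for rhoaa and 5.88, 7.47 and 5.87 for gadd45ab. As rhoaa was picked for its correlation with gadd45ab over these same libraries, a shared order is part of that choice and no separate result.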

How the data were processed

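The authors deposited whole-number read counts per gene symbol, not normalised. The submitters' processing notes list Trim Galore 0.4.4, HTSeq 0.9.1, Picard 2.5.0, STAR 2.7, Bowtie2 and build danRer11. Annotation, strand setting and treatment of multiply aligned reads: not given in the sources used here, so reads shared between duplicate genes could have been split or lost. Columns were matched to samples by genotype, treatment and replicate number.

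The counts of all 12 libraries were fitted together with edgeR 4.0.16 (R 4.3.3; filterByExpr, TMM factors, robust glmQLFit and glmQLFTest, 4 group means, 8 residual degrees of freedom), with Benjamini-Hochberg adjustment over 11866 genes. Each SE is the fold change (log2) divided by the root of F. CPM was scaled by TMM. Exact permutation tests were used for ratios (0.5 added to counts) and for genotype levels. The labels do not tie libraries to separate clutches, so p-values measure the spread between pools, which may be technical. Chi-square per degree of freedom between replicates was 7.98 to 69, so none agreed within sampling noise. Scripts were tested on simulated data. The genes and lists were chosen with earlier results of these data known. Named after their values were seen were sesn2, rprma, rprmb, cdkn1bb, single tissue markers and the neighbours. Of each list up to 4 called genes with the smallest wild-type p are named, with mir34 and the 3 most correlated genes. The values of 1 gene that this rule names are not reported here; it stays in its list's counts and medians. Sequences were not used here. Alternatives included DESeq2 1.42.0 and limma-voom (limma 3.58.1).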

Additional observations from a re-analysis of the deposited data

How the results depend on the processing

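The CPT calls of cdkn1a and gadd45aa were kept under each of 23 alternatives in both genotypes, and that of ccng1 under the 21 (wild-type) and 22 (mutants) that tested it, with adjusted p up to 0.0124 and 0.0262; ccng1 did not pass a filter of 1 CPM or more in 3 libraries, nor the filter on the wild-type groups alone. No alternative called gadd45ab, or a genotype difference for any of the 4 genes. Their reversed signs are all of uncalled differences, and the cause of the changes below was not tested.

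Library totals put the median of all genes at -0.23 (CPT in wild-type), 0.20 (mutant against wild-type in CPT) and 0.18 (interaction). With TMM factors these medians were -0.0025, 0.0146 and 0.0038. The share of higher calls went from 47.8% to 29.7%, 34.4% to 91% and 15.8% to 85.7%. Library totals called 2025 genes higher in wild-type CPT, 1088 higher and 107 lower between genotypes in CPT, and 6 higher and 1 lower for the interaction. Rising PP2A genes became 0 in both genotypes, and rising cyclin and kinase genes 1 each in wild-type embryos. Reversed values were interactions of 0.0842 (ccng1) and 0.0473 (cdkn1a), the gadd45aa level (0.0400) and gadd45ab between genotypes in CPT (0.1253). With limma-voom ccng1 reversed to 0.1931 (interaction) and -0.1117 (between genotypes in DMSO). DESeq2 called 73 higher and 260 lower for the interaction, 261 and 432 between genotypes in CPT and 78 and 106 in DMSO. Without the filter it was 6 and 29 for the interaction and 35 higher in DMSO. With only the groups compared it was 51 and 142 in CPT. Upper-quartile factors gave 5 higher for the interaction and 4 rising kinase genes in mutants, and thinning 0 rising PP2A genes in mutants.

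No clear pairing by replicate number was seen: 3 of 18 correlations of same-numbered deviations were over 0.1, against 4 of 36 of other numbers. A library correlated best with its own number, among 3 candidates, in 10 of 36 comparisons. Whether libraries of the same number share a clutch cannot be told from these values. The replicate block gave 3469 higher and 3787 lower calls in wild-type CPT and 4 and 21 for the interaction, and changed no call of the 4 genes; ccng1 between genotypes in CPT was -0.0007.

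Leaving out 1 library at a time gave 0 to 171 higher and 0 to 333 lower interaction calls, 19 to 419 and 46 to 626 between genotypes in CPT, both highest without wild-type CPT library 3, and 7 to 92 and 15 to 104 in DMSO, highest without wild-type DMSO library 1. Rising PP2A genes were 0 to 2 in wild-type embryos and 0 to 1 in mutants, rising cyclins 2 to 5 and rising kinases 1 to 3 in wild-type embryos. Interactions ran from -0.5171 to 0.8292 (ccng1) and -0.6583 to 0.0786 (gadd45ab), and genotype levels from -0.1977 to 0.2158 and -0.0543 to 0.3052. Between genotypes in CPT the ranges were -0.1964 to 0.3542 (ccng1), -0.0906 to 0.1267 (cdkn1a) and -0.2685 to 0.3331 (gadd45ab), and in DMSO -0.7855 to 0.5609 (ccng1) and -0.1425 to 0.5945 (gadd45ab). The change in gadd45ab over ccng1 ran from -2.0271 to -1.2808. The planned promoter motif count was not run, and the neighbour rows were looked at after seeing the data. The ccng1 values rest on 13 to 64 counts per group, which limits their precision.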
